A study of Mus musculus with 27 samples.

Results

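A set of 10 genes that mark endoderm and the early liver was followed through the whole series: the apolipoprotein genes Apob, Apoa1, Apoa2 and Apom, the plasma carrier genes Afp, Alb and Ttr, and the transcription factor genes Foxa1, Foxa2 and Sox17. They are 10 of the 23279 genes in the table, and they were selected on values measured in these same libraries, so their levels below are a description and carry no test. Liver-type cells secrete albumin, transthyretin, alpha-fetoprotein and the apolipoproteins into the plasma, and before a liver exists the visceral endoderm of the yolk sac makes many of the same proteins. FoxA factors open chromatin at genes of this kind in all gut endoderm, and are also used by the notochord and floor plate. Sox17 is a factor of early endoderm and, separately, of endothelial cells.

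RNA was measured in 9 groups of 3 libraries. ES–FLB and ES–HLB mesenchyme came from EB5 Hand2::GFP +/- mouse ES cells, which carry a fluorescent reporter in 1 copy of the mesenchyme gene Hand2. Aggregates received BMP4 and Matrigel on days 1 to 5, then either retinoic acid on days 5 to 6 (ES–FLB) or a retinoic acid antagonist on days 6 to 6.5 (ES–HLB), and finally LDN193189, which inhibits BMP signalling, and after it Wnt3. The labels put these 2 steps within days 7 to 9, and the methods of the study have LDN193189 start on day 6.5 and Wnt3 end on day 8. By those methods the medium of both types also held hydrocortisone and methylcellulose from day 6.5. The part of these additions in the comparisons with embryonic tissues was not tested. The reporter-positive cells were sorted on day 9. The embryos were of the strain Slc:ICR, and gave forelimb and hindlimb buds (FLB, HLB) labelled E10.0 (the early limb buds) and E10.5, along with the branchial arch (BA), cardiac region (Ca) and tail bud (TB) at E10.5, dissected without a sort. The study itself places its early FLBs at a younger stage than its early HLBs, so the early limb buds are 1 stage by their labels only. An ES–LB library, which is an ES–FLB or an ES–HLB library, pooled sorted cells of many aggregates, the embryonic tissues were taken from a few embryos, and the labels do not say which libraries share a culture or an embryo, so p-values measure the spread between these libraries, which may be technical.

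Replicate 2 of the E10.5 HLBs has 13642 genes at 0, against at most 8496 in any other library, and has no values on several chromosomes, among them those of Afp, Alb and Apoa1, so the other 26 libraries were used. These held about 5543750 to 22142200 reads, the early limb buds being the deepest. A count of 3 reads, the limit below which a gene is hard to tell from absent, was worth 0.135 to 0.541 CPM before scaling (CPM is a gene's share of the reads of a library, with all genes adding up to 1000000). The labelled tissues carried their defining genes: Tnnt2 of heart muscle was at 1973 to 2399 CPM in Ca and at most 7.19 elsewhere, the tail bud gene T was at 119 to 135 CPM in TB and at most 3.62 elsewhere, Tbx5 was at 65.9 to 71.5 CPM in ES–FLB and 2.23 to 3.99 in ES–HLB, and Tbx4 was at 47.9 to 60.2 CPM in ES–HLB and 1.19 to 4.05 in ES–FLB. All levels are CPM after scaling between libraries, and, in these bulk samples, fewer cells of a type and less RNA per cell cannot be told apart.

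Across the 9 groups the 10 genes did not share 1 pattern. Summed over the 10 genes, the level was 46.9 to 1727 CPM in Ca, 219.7 to 309.7 in ES–HLB, 94.5 to 116 in ES–FLB, 18.2 to 25.1 in TB, 11.4 to 15.2 in BA and 4.44 to 15.4 in the 11 limb bud libraries. By group mean, Apob, Apoa1 and Ttr were highest in ES–HLB, while Afp, Alb, Apoa2 and Apom were highest in Ca. Foxa1 and Foxa2 were highest in TB, and Sox17 was highest in the early HLBs and differed little between groups. The 7 genes of secreted proteins thus had their highest means in other groups than the 3 factors. Foxa1 and Foxa2 were nevertheless higher in every ES–LB library than in any limb bud library.

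**Figure D1:**
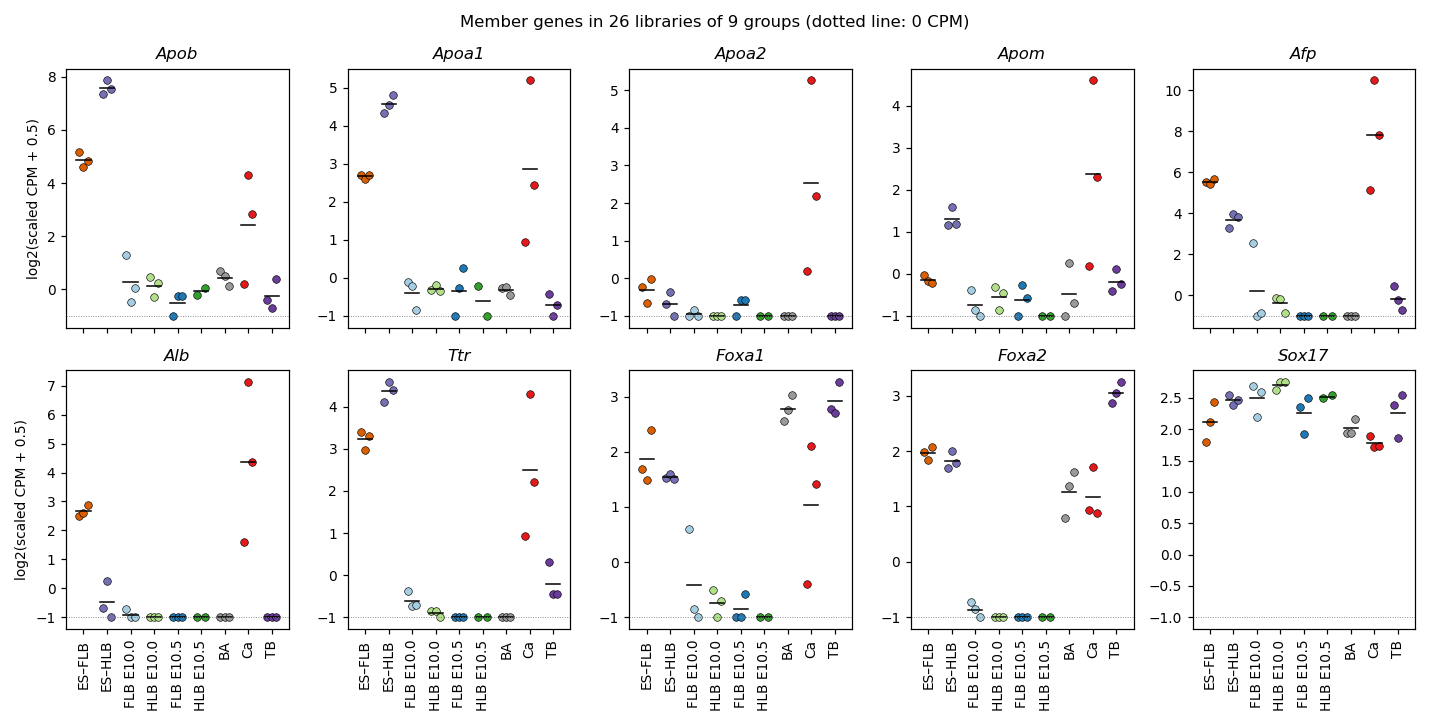
Level of each of the 10 genes as log2(scaled CPM + 0.5) on the vertical axis, with 1 point per library, 9 groups along the horizontal axis, and a short bar for the mean of the log values. The 3 Ca points are spread over a wide range for Afp, from 34.7 to 1441 CPM, while Sox17 stays between 2.80 and 6.24 CPM in all 26 libraries.

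Alb and Afp lie side by side on mouse chromosome 5, Alb at chr5:90460870-90476602 and Afp at chr5:90490714-90508907 on GRCm38.p6, with 14111 bases between them, and both read in the plus direction. They are shown with Apob because these 3 genes carry the contrast between the ES–FLB and ES–HLB cells described further on. The bases just upstream of each gene as annotated are printed here on the plus strand, with capitals for TATAAA, the letters of the TATA box of core promoters.

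Alb, chr5:90460620-90460869: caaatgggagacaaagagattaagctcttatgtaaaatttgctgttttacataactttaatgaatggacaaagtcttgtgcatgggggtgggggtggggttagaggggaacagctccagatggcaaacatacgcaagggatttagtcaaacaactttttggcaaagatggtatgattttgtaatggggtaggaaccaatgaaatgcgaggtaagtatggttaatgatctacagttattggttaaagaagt
Afp, chr5:90490464-90490713: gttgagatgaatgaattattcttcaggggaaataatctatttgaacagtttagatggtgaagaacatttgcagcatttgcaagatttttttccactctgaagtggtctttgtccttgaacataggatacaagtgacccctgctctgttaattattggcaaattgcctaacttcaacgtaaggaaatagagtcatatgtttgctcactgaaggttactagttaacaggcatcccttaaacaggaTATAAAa
Apob, chr12:7977427-7977628: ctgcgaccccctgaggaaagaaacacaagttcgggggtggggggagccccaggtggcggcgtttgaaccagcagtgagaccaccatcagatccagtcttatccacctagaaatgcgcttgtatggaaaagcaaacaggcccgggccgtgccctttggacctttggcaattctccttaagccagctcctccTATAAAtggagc

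TATAAA began 7 bases before the annotated start of Afp and 12 bases before that of Apob, and these letters do not occur on either strand of the Alb stretch. Searched on both strands in the 250 bases before each start of the RefSeq promoter table, which for Apob lies further downstream, they occurred in 12.4% of 32851 RefSeq promoters, and among the 8 of the 10 genes with an entry in that table they occurred in Apob, Apoa2, Afp and Foxa2. The forkhead motif TGTTTAC was in 3.17% of the promoters, and among these genes in Apoa2 and Foxa1. Neither motif contains the other. A match is a run of letters and not a measured site.

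Apob encodes the large structural protein of chylomicrons and low-density lipoproteins, and spans chr12:7977629-8016839. It stood at 162, 234 and 186 CPM in the 3 ES–HLB libraries and at 35.3, 23.8 and 28.3 CPM in the 3 ES–FLB libraries. The 3 Ca libraries gave 0.638, 19.0 and 6.59 CPM. Every ES–HLB library was above every ES–FLB library, which was above every Ca library, and the ranges of these 3 groups do not overlap. Its mean was 194 ± 36.6 CPM in ES–HLB, against 29.1 ± 5.80 CPM in ES–FLB (SD, n = 3 each), a ratio of 6.66. Of the 11 limb bud libraries, 6 lay above their own limit of 3 reads, all of them early limb buds, the median was 0.366 CPM and the highest value, in replicate 1 of the early FLBs, was 1.97 CPM. BA gave 0.588 to 1.11 CPM and TB 0.116 to 0.798 CPM. The ratio of means between ES–HLB and the early HLBs (0.624 ± 0.275 CPM, n = 3) was 310.

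Apoa1, at chr9:46228630-46230469, encodes the main protein of high-density lipoproteins. Its ES–HLB libraries held 19.8, 23.0 and 27.4 CPM and its ES–FLB libraries 6.07, 5.62 and 5.97 CPM. The means were 23.4 ± 3.82 and 5.89 ± 0.239 CPM (SD, n = 3 each), 3.98 times apart with no overlap. In Ca it was at 1.40, 36.2 and 4.97 CPM, so 1 cardiac library lay above every ES–HLB library and the others lay below every ES–FLB library. The highest value in the 11 limb bud libraries was 0.689 CPM, and BA and TB held at most 0.347 CPM and 0.248 CPM.

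Apoa2, the second protein of high-density lipoproteins, at chr1:171221564-171226379, was highest in Ca, at 0.638, 37.9 and 4.03 CPM. The first of these rests on 5 reads. Elsewhere it reached at most 0.478 CPM, in replicate 3 of ES–FLB, and it was at 0 in 15 of 26 libraries. It was at 1 CPM or more in 2 libraries and so did not pass the filter on low values (1 CPM in at least 3 libraries), which the other 9 genes passed.

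Apom encodes a lipocalin carried on high-density lipoproteins and lies at chr17:35128997-35131801. Ca held 0.638, 23.9 and 4.44 CPM, ES–HLB 1.75, 2.51 and 1.76 CPM, and ES–FLB 0.476, 0.383 and 0.358 CPM. The ES–HLB values were all above the ES–FLB values, and the means, 2.00 ± 0.437 and 0.406 ± 0.0623 CPM (SD, n = 3 each), were 4.94 times apart. Only 1 of the 3 ES–FLB libraries was above its limit of 3 reads.

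Afp encodes alpha-fetoprotein, the main plasma protein of the fetus. It was at 45.3, 42.4 and 51.3 CPM in ES–FLB (46.3 ± 4.57, SD, n = 3) and at 9.10, 15.3 and 13.8 CPM in ES–HLB (12.8 ± 3.25, n = 3). Here the order of the 2 ES–LB types was the opposite of that for Apob, with every ES–FLB library above every ES–HLB library and a ratio of means of 3.63. Ca held 34.7, 1441 and 225 CPM, a range that encloses all ES–FLB values. BA and both groups of E10.5 limb buds were at 0 in every library used, and TB was at 0.114 to 0.868 CPM. A single limb bud library stood out: replicate 1 of the early FLBs held 5.31 CPM from about 100 reads, while the highest of the other early limb bud libraries held 0.408 CPM. That library also had the highest Apob (1.97 CPM) and Foxa1 (1.01 CPM) of all limb buds.

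Alb encodes albumin, the main plasma protein after birth. It was at 5.12, 5.62 and 6.81 CPM in ES–FLB, with a mean of 5.85 ± 0.866 CPM (SD, n = 3), and at 0.125, 0.697 and 0 CPM in ES–HLB, which rest on 1, 5 and 0 reads. Ca held 2.55, 140 and 20.2 CPM. All TB, BA and HLB libraries used were at 0, and 10 of the 11 limb bud libraries were. The ES–FLB and ES–HLB ranges do not overlap, and Alb went with Afp in this respect.

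Ttr, on chromosome 18, encodes transthyretin, which carries thyroxine and the retinol-binding protein. It was at 10.01, 7.41 and 9.43 CPM in ES–FLB and at 16.7, 23.6 and 20.6 CPM in ES–HLB. The means were 8.95 ± 1.37 and 20.3 ± 3.43 CPM (SD, n = 3 each), 2.27 times apart with no overlap, in the same direction as Apob and Apoa1. Ca held 1.40, 19.3 and 4.17 CPM. TB was at 0.228 to 0.744 CPM, BA was at 0, and no limb bud library passed 0.266 CPM.

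Foxa1 (chr12:57540628-57548029) and Foxa2 (chr2:148042877-148046969) encode pioneer factors of endoderm. TB held 6.33, 6.03 and 9.12 CPM of Foxa1, BA 5.35, 6.24 and 7.64, ES–FLB 2.74, 2.30 and 4.78, and ES–HLB 2.37, 2.51 and 2.34 CPM. BA and TB overlapped and lay above both ES–LB types, which overlapped each other. In Ca Foxa1 was at 0.255, 3.78 and 2.15 CPM, in the same order of libraries as Afp. The limb buds had a median of 0 CPM. Foxa2 was at 6.82, 7.77 and 9.00 CPM in TB, above every other library, at 3.06 to 3.70 CPM in ES–FLB, at 2.74 to 3.48 CPM in ES–HLB, at 1.23 to 2.59 CPM in BA and at 1.34 to 2.80 CPM in Ca. Its means in TB and BA (7.86 ± 1.09 and 1.96 ± 0.688 CPM, SD, n = 3 each) had a ratio of 4.0045. It was at 0 in 9 of 11 limb bud libraries.

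Sox17 (chr1:4490928-4497426) was above its limit of 3 reads in all 26 libraries, between 2.80 and 6.24 CPM. Group means ran from 2.94 ± 0.221 CPM in Ca to 6.04 ± 0.327 CPM in the early HLBs (SD, n = 3 each). The order was early HLBs, E10.5 HLBs, early FLBs, ES–HLB, TB, E10.5 FLBs, ES–FLB, BA and Ca. Neighbours in it overlapped, except that the early HLBs lay above the E10.5 HLBs and BA above Ca. Endothelial genes did not follow it: the summed level of 13 endothelial markers (Pecam1, Cdh5, Kdr and others) was 31.9 to 38.0 CPM in ES–FLB, against 48.7 to 56.6 CPM in ES–HLB, but 404 to 559 CPM in the limb buds and 1164 to 1231 CPM in Ca. Sox17 was at 2.98 to 4.90 CPM in ES–FLB, against 4.74 to 5.36 CPM in ES–HLB.

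Levels of different genes can be compared only per length, here as CPM per kilobase of annotated exon. On that scale the means in ES–HLB were 18.9 ± 3.09 for Apoa1, 17.1 ± 2.90 for Ttr and 13.9 ± 2.63 for Apob (SD, n = 3), followed by 3.79 ± 0.965 for Afp and 1.98 ± 0.431 for Apom. In ES–FLB the order was Afp (13.8 ± 1.36), Ttr (7.55 ± 1.15), Apoa1 (4.76 ± 0.193), Alb (2.50 ± 0.370) and Apob (2.09 ± 0.416). In Ca Afp came first at 168 ± 227, where the SD exceeds the mean. Afp is overlapped on the opposite strand by an antisense gene over 9820 bases and Sox17 by a noncoding gene over 804 bases. As the strand setting of the counting is not stated, their reads cannot be told apart from those of these partners.

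The contrast between the 2 ES–LB types had 2 directions. Apob, Apoa1, Apom and Ttr were higher in all 3 ES–HLB libraries than in any ES–FLB library, Afp and Alb were lower in all 3, and Foxa1, Foxa2 and Sox17 overlapped. Of all genes tested, 10.8% were called higher and 8.89% lower in ES–HLB than in ES–FLB (limma, adjusted p of 0.05). As values of this contrast were known when the 10 genes were chosen, nothing is read from their share.

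**Figure D2:**
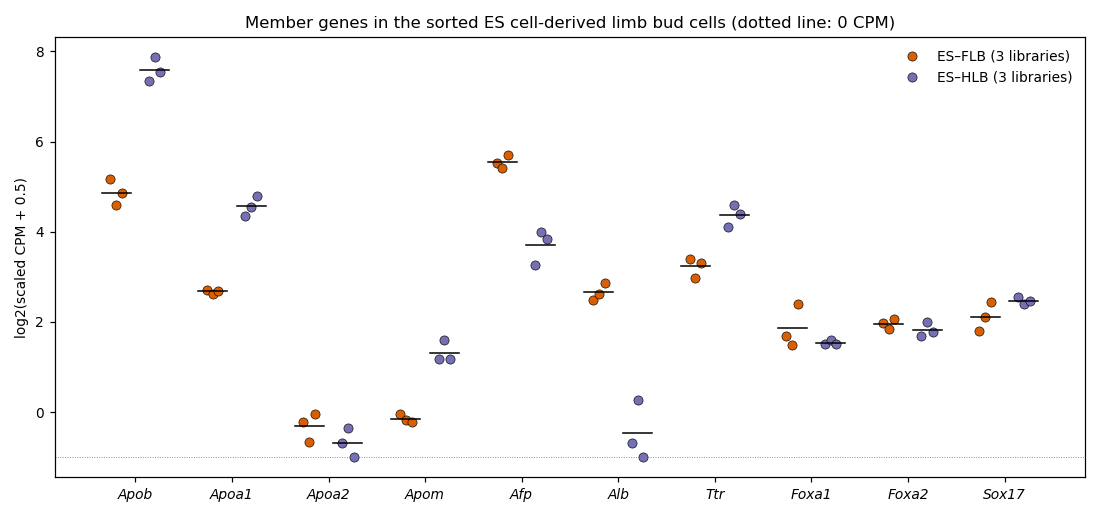
Level of the 10 genes as log2(scaled CPM + 0.5) in the 3 ES–FLB and the 3 ES–HLB libraries, with 1 point per library and a bar for the mean of the log values. Apob (23.8 to 35.3 against 162 to 234 CPM) and Afp (42.4 to 51.3 against 9.10 to 15.3 CPM) separate in opposite directions, while Foxa2 (3.06 to 3.70 against 2.74 to 3.48 CPM) overlaps.

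Ratios within a library show the same contrast free of any scaling between libraries. For each 100 CPM of Afp, ES–FLB held 77.9, 56.0 and 55.1 CPM of Apob, and ES–HLB held 1775, 1524 and 1346 CPM. Ca held 1.84, 1.32 and 2.92 CPM. The cardiac libraries, which differed widely in level, lay nearer to each other in this ratio than to either ES–LB type. Apob in replicate 1 of Ca rests on 5 reads, so its ratio is uncertain. Alb per 100 CPM of Afp was 11.3, 13.3 and 13.3 CPM in ES–FLB and 7.35, 9.69 and 8.95 CPM in Ca, the nearest of these ratios between the groups, and was 1.37, 4.55 and 0 CPM in ES–HLB, where Alb itself rests on at most 5 reads. Ttr per 100 CPM of Afp was 22.1, 17.5 and 18.4 CPM in the ES–FLB libraries. It was 184, 154 and 149 CPM in the ES–HLB libraries and 4.04, 1.34 and 1.85 CPM in Ca.

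**Figure D3:**
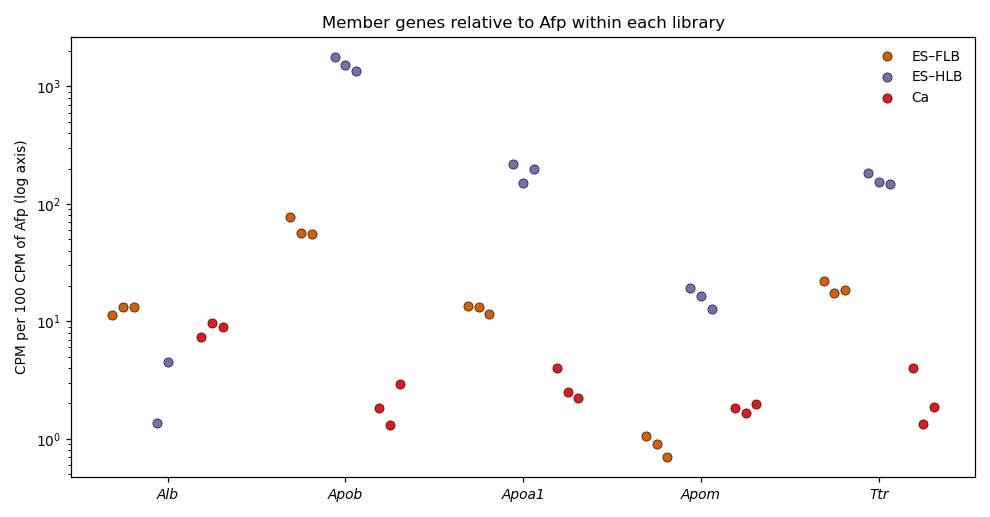
CPM of Alb, Apob, Apoa1, Apom and Ttr for each 100 CPM of Afp in the same library, on a log axis, with 1 point for each library of ES–FLB, ES–HLB and Ca, and no point for a value of 0. Apob lies at 1346 to 1775 in ES–HLB, at 55.1 to 77.9 in ES–FLB and at 1.32 to 2.92 in Ca.

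Other liver-type and endodermal genes, not among the 10, were compared between ES–HLB and ES–FLB with limma over all genes tested. Of 15 tested plasma protein genes, 6 were lower and 1 was higher in ES–HLB. Itih2, an inter-alpha-trypsin inhibitor chain, was lower by a log2 difference of -2.74 ± 0.749 (SE, adjusted p = 0.014), at 0.308 against 4.86 CPM. Vtn, which encodes vitronectin (-2.69 ± 0.865, adjusted p = 0.0355 by limma), and Ambp, the precursor of alpha-1-microglobulin (-2.47 ± 0.795, adjusted p = 0.035 by limma), were lower too. F10, which encodes coagulation factor X, was higher by 1.14 ± 0.376 (adjusted p = 0.0301 by limma), at 0.861 against 0.0851 CPM. The other 3 lower genes, given here after their values were seen, were C3, complement factor 3 (-2.28 ± 0.456, adjusted p = 0.000731 by limma), Gc, the vitamin D-binding protein (-1.86 ± 0.29, adjusted p = 1.22e-05 by limma), and Ahsg, which encodes fetuin (-1.58 ± 0.327, adjusted p = 0.000566 by limma). Of the 6, Ahsg, Ambp and Gc reached 1 CPM in fewer than 3 libraries outside ES–FLB, so they were tested only because they are high there and their direction was set by the filter. C3 stood at 2.98, 2.17 and 1.43 CPM in ES–FLB and at 0.125, 0 and 0 CPM in ES–HLB.

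With each ES–LB library left out in turn, 3 or 4 plasma protein genes were lower and 0 or 1 higher. C3 and Ahsg kept their calls in all 6 fits, with limma adjusted p of at most 0.00637 and 0.00959, the latter with its direction set by the filter. Vtn and Ambp lost theirs in all 6 (adjusted p of 0.0711 to 0.0932 and 0.0619 to 0.118 by limma). Itih2 did so without replicate 3 of ES–HLB (0.0514), and F10 in 4 of the 6, with a highest adjusted p of 0.172. These fits share 1 spread per gene over all 9 groups, Ca among them, where Vtn was at 0.128, 24.2 and 4.03 CPM. A lost call is therefore not a measure of the spread within the ES–LBs. There Vtn was at 4.72 to 5.37 CPM in ES–FLB and 0.279 to 0.469 CPM in ES–HLB, and Ambp at 2.14 to 4.06 and 0 to 0.139 CPM. Using the ES–LB libraries alone, an alternative chosen after seeing the data, gave 9 lower and 1 higher of 11 tested plasma protein genes. There the filter saw only these 6 libraries. Genes that reached 1 CPM in ES–FLB alone, among them Vtn, Itih2, C3 and Serpina6, thus had their direction set by it, and nothing is read from this count.

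Of 7 tested lipoprotein genes, 3 were higher and 1 was lower in ES–HLB, with 2 to 3 higher and 0 to 1 lower when 1 library was left out. Apoa4, a further apolipoprotein, was higher (1.61 ± 0.228, adjusted p = 2.47e-06 by limma), but it reached 1 CPM only in the 3 ES–HLB libraries and was tested only because it is high there. The other two were Apoe, the ligand of lipoprotein receptors (1.17 ± 0.132, adjusted p = 4.38e-07 by limma), and Mttp, which loads lipid onto the Apob protein (0.83 ± 0.155, adjusted p = 0.00016 by limma). Pltp, the phospholipid transfer protein, was lower (-0.65 ± 0.188, adjusted p = 0.0146 by limma), a call lost without replicate 3 of ES–FLB (0.0822) or replicate 1 of ES–HLB (0.0571). Apoe stood at 146 CPM in ES–HLB, against 64.9 CPM in ES–FLB. Genes of the visceral endoderm and yolk sac included 4 higher and 0 lower of 9 tested, by limma at an adjusted p of 0.05, and 5 higher and 1 lower at an unadjusted p of 0.05. The 4 were Amn, the membrane anchor of the cubilin receptor (1.47 ± 0.257, adjusted p = 6.14e-05), Dpp4, a surface peptidase (1.17 ± 0.237, adjusted p = 0.000425), Cubn, cubilin itself (1.07 ± 0.303, adjusted p = 0.0104, and 0.0558 without replicate 1 of ES–FLB), and Rhox5, a homeobox gene of extraembryonic tissue (0.80 ± 0.235, adjusted p = 0.014, and at most 0.0656 with 1 library left out). The hepatic factor Prox1 was lower (-0.79 ± 0.212, adjusted p = 0.00738 by limma) and the other 6 tested hepatic factors, Hnf4a among them, did not pass. The Prox1 call was lost without replicate 3 of ES–FLB (0.0577) or replicate 2 of ES–HLB (0.0513).

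Gut and pharyngeal endoderm genes, several of them general epithelial genes, were higher for 5 of 11 tested, with 3 to 6 when 1 library was left out, led by the keratin Krt19 (2.27 ± 0.151, adjusted p = 2.33e-12 by limma). Embryonic globins and other red blood cell genes were higher for 7 of 8, led by Hbb-bh1 (4.69 ± 0.305, adjusted p = 2.89e-09 by limma), with a summed level of 5.72 to 8.55 CPM in ES–FLB, against 88.7 to 167 CPM in ES–HLB. Endothelial genes were higher for 7 of 13, with 3 to 8 when 1 library was left out. Of 9 genes of the proepicardium and septum transversum, the mesenchyme next to the early liver, 3 were lower, led by Gata5 (-2.83 ± 0.397, adjusted p = 1.96e-05 by limma), and 2 were higher. Of 8 notochord and floor plate genes, 2 were higher and 1 was lower. The part of these other cell types in the members' values was not tested.

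ES–LB cells were next set against the 11 limb bud libraries. All of the 10 but Apoa2 and Sox17 lay above every limb bud library in ES–FLB or in ES–HLB. The share of all genes that did so was not computed, and the 10 were selected on values of these libraries. Nothing is therefore read from their number. The ES–LB cells had been sorted for a mesenchyme reporter and the limb buds had not been sorted. The study reports that the aggregates, on the side away from the limb bud region, kept undifferentiated or endodermal cells, the latter marked by FoxA2 and Sox17. The part of such cells in the sorted libraries was not tested. Over all genes 39.0% were called higher and 43.2% lower (limma, adjusted p of 0.05), and without scaling between libraries 59.7% of the calls were higher against 47.5% with it, with the median of all genes moving from -0.03 to 0.15 on the log2 scale. Of 87 tested list genes, 40 were higher and 37 lower, against 41 and 35 without scaling.

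Plasma protein genes were higher for 11 of 15 tested and lower for 0 by limma at an adjusted p of 0.05, and the counts were the same at an unadjusted p of 0.05. The fibrinogen chain gene Fgb (2.52 ± 0.447, adjusted p = 4.13e-05), Rbp4, the retinol-binding protein (2.14 ± 0.406, adjusted p = 9.16e-05), and Vtn (2.09 ± 0.541, adjusted p = 0.00169) led, and Rbp4 stood at 14.9 CPM against 2.78 CPM. Of the 11, Ahsg, Ambp, Gc and Fgb passed the filter only through the ES–LB libraries, and so did Apoa4, Hnf4a, Habp2 and Ihh in the lists below, which fixed their direction. Of 7 hepatic transcription factors 5 were higher, among them Hnf4a, the nuclear receptor of liver and visceral endoderm (2.91 ± 0.446, adjusted p = 7.82e-06), and Prox1 (1.46 ± 0.133, adjusted p = 8.14e-12). Hhex, used in both liver bud and endothelium, was lower (-0.96 ± 0.132, adjusted p = 6.46e-08 by limma). All 9 visceral endoderm genes tested were higher than the mean of the limb bud groups, led by Dpp4 (3.31 ± 0.148, adjusted p = 9.72e-20), Cubn (3.05 ± 0.189, adjusted p = 6.35e-16) and Rhox5 (2.48 ± 0.147, adjusted p = 1.58e-16). Not all of them lay above each limb bud group. Lrp2 was at 15.2 to 30.7 CPM in the early FLBs, against 2.87 to 4.90 CPM in the ES–LBs. Dab2 was at 72.2 to 89.3 CPM in the E10.5 FLBs, against 62.1 to 81.8 CPM in the ES–LBs. Lipoprotein genes were higher for 5 of 7, led by Apoe (2.41 ± 0.0822, adjusted p = 1.02e-18) at 105 against 18.1 CPM, with Apoc1 lower (-1.83 ± 0.212, adjusted p = 4.46e-09).

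Gut and pharyngeal endoderm genes showed no such direction, with 2 of 11 higher, Ihh (2.15 ± 0.216, adjusted p = 1.24e-10 by limma) and Pax9, and 7 lower, led by Cdx1 (-3.30 ± 0.195, adjusted p = 4.96e-16 by limma) and the epithelial gene Epcam (-1.61 ± 0.163, adjusted p = 3.18e-08 by limma). The limb buds carry their ectoderm, where several of these epithelial genes are used. Cdx1 was higher in every early limb bud library than in any TB library, so this list does not stand for gut endoderm alone. All 13 endothelial and all 8 red blood cell genes were lower in the ES–LBs, with median log2 differences of -3.28 and -5.33. Proepicardial genes were split, 4 higher and 5 lower of 9, and notochord and floor plate genes were 4 higher and 2 lower of 8. Of the lower proepicardial genes, Lhx2 was at 74.5 to 194 CPM in the limb buds, against 3.58 to 12.9 CPM in Ca. Tbx18 overlapped between the limb buds and Ca, while Wt1, Upk3b and Gata5 were higher in Ca. This list therefore does not stand for proepicardial cells alone.

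The Ca libraries lay far apart in the secreted members. Replicate 2 held 41.5 times the Afp of replicate 1, 54.7 times the Alb, 59.4 times the Apoa2, 37.5 times the Apom, 29.8 times the Apob, 25.8 times the Apoa1 and 13.7 times the Ttr, and replicate 3 lay between for all 7. In replicate 1, Apoa2, Apom and Apob rest on 5 reads each, and Apoa1 and Ttr on 11 each, so these ratios are uncertain. The spread in Afp was known when the genes were chosen. Sox17 did not share it, at 3.19, 2.80 and 2.82 CPM in replicates 1, 2 and 3, nor did Foxa2, at 1.40, 2.80 and 1.34 CPM.

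**Figure D4:**
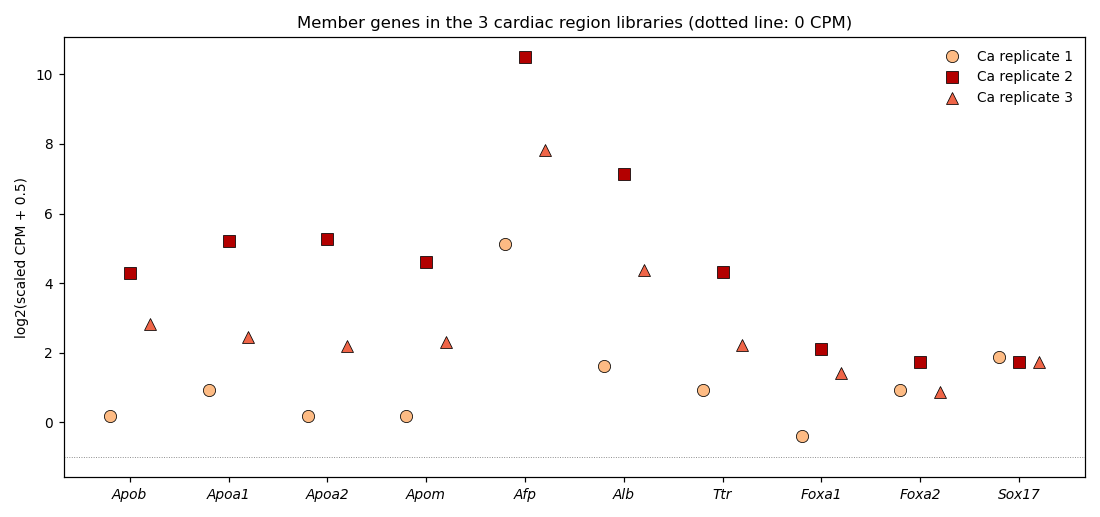
Level of the 10 genes as log2(scaled CPM + 0.5) in the 3 Ca libraries, 1 symbol per replicate. For the 7 secreted proteins replicate 2 is highest, replicate 3 next and replicate 1 lowest, for example 139.6, 20.2 and 2.55 CPM of Alb, while Sox17 lies between 2.80 and 3.19 CPM.

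Plasma protein genes outside the 10 had the same order of the Ca libraries. It held for 13 of 15 tested genes, against 15.6% of all 14438 tested genes, and the summed level of the 28 genes was 36.8, 882 and 151 CPM in replicates 1, 2 and 3. Among the 15, Itih3, F10 and Serpinc1 passed the filter only through Ca. The lists were also chosen with earlier results known, so this share is a description. For the 15 plasma protein genes above the limit of 3 reads in replicate 1, replicate 2 was 3.98 to 71.2 times replicate 1 (median 31.8). Hnf4a had the same order, at 0.383, 25.7 and 2.15 CPM, and the prothrombin gene F2, chosen here after its values were seen, was at 0.511, 13.4 and 4.03 CPM. The order held for 2 of 9 proepicardial genes, 2 of 13 endothelial, 1 of 9 visceral endoderm and 0 of 8 red blood cell genes tested. The proepicardium and septum transversum summed to 912, 863 and 892 CPM, the endothelium to 1231, 1167 and 1164 CPM and red blood cells to 34651, 29665 and 23957 CPM. The visceral endoderm list summed to 413, 390 and 377 CPM, of which Cited1 made up 279, 236 and 227 CPM, while its member Habp2 had the order of the plasma proteins, with 23.6 times as much in replicate 2 as in replicate 1. The heart muscle gene Tnnt2 was at 2399, 1973 and 1978 CPM. Prox1, a hepatic factor that heart muscle also uses, was at 43.2, 39.0 and 35.2 CPM. The part of any tissue beside the heart in these dissections was not tested.

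Against the other E10.5 tissues, 37.3% of all genes were called higher in Ca and 41.7% lower. These comparisons of Ca, BA and TB share libraries, since each tissue is part of the reference of the others. Plasma protein genes were higher for 13 of 15 tested, led by Itih2 (5.04 ± 0.599, adjusted p = 3.45e-07 by limma), Serpina6, the corticosteroid-binding globulin (4.91 ± 0.585, adjusted p = 3.33e-07 by limma), and the antiplasmin gene Serpinf2 (4.78 ± 0.573, adjusted p = 3.63e-07 by limma). Only Cp, ceruloplasmin, was lower (-0.93 ± 0.199, adjusted p = 8.87e-05 by limma). Of these, 3 of the 13 higher genes (Itih3, F10 and Serpinc1) and Cp passed the filter only through the side where they were high. Without replicate 2 of Ca, the highest library, 8 of 13 tested were higher and 1 was lower. The fit shares 1 spread per gene over all 9 groups, while Itih2 was at 2.94, 130 and 26.1 CPM in Ca. For genes that vary this much between the Ca libraries, Hnf4a among them, the SE and adjusted p understate the spread within Ca. Among 7 hepatic factors Prox1 (3.64 ± 0.17, adjusted p = 4.14e-19 by limma), Hnf4a (2.96 ± 0.572, adjusted p = 0.000117 by limma) and Hhex (1.27 ± 0.169, adjusted p = 4.28e-08 by limma) were higher and 0 lower by limma, also at an unadjusted p of 0.05, or 3 higher and 2 lower without replicate 2 of Ca. All 9 visceral endoderm genes were higher, led by Dpp4 (4.35 ± 0.19, adjusted p = 6.9e-20) and Cited1 (3.77 ± 0.103, adjusted p = 2.87e-25), and Cited1 is also used in heart and other mesoderm. Not all of them lay above each tissue, as Lrp2 was at 11.6 to 19.4 CPM in Ca and 9.43 to 14.5 CPM in TB. Proepicardial genes were higher for 8 of 9, led by the cardiac and epicardial factor Gata4 (8.35 ± 0.311, adjusted p = 1.34e-15), endothelial genes for 10 of 13 and red blood cell genes for 8 of 8. Gut and pharyngeal endoderm genes were mostly lower, 7 of 11, with Shh (-3.25 ± 0.302, adjusted p = 2.27e-09), Cdh1 (-3.15 ± 0.199, adjusted p = 3.73e-11) and Epcam (-2.75 ± 0.209, adjusted p = 5.66e-10) at the front and 3 keratins higher, or 2 without replicate 3 of Ca. Shh was at 8.50 to 13.7 CPM in the E10.5 limb buds used, so the gut and pharyngeal list does not stand for endoderm alone. Apoe (2.71 ± 0.105, adjusted p = 2.03e-17) and Mttp (1.41 ± 0.124, adjusted p = 4.8e-12) were higher and Pltp lower (-2.01 ± 0.15, adjusted p = 6.45e-12).

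**Figure D5:**
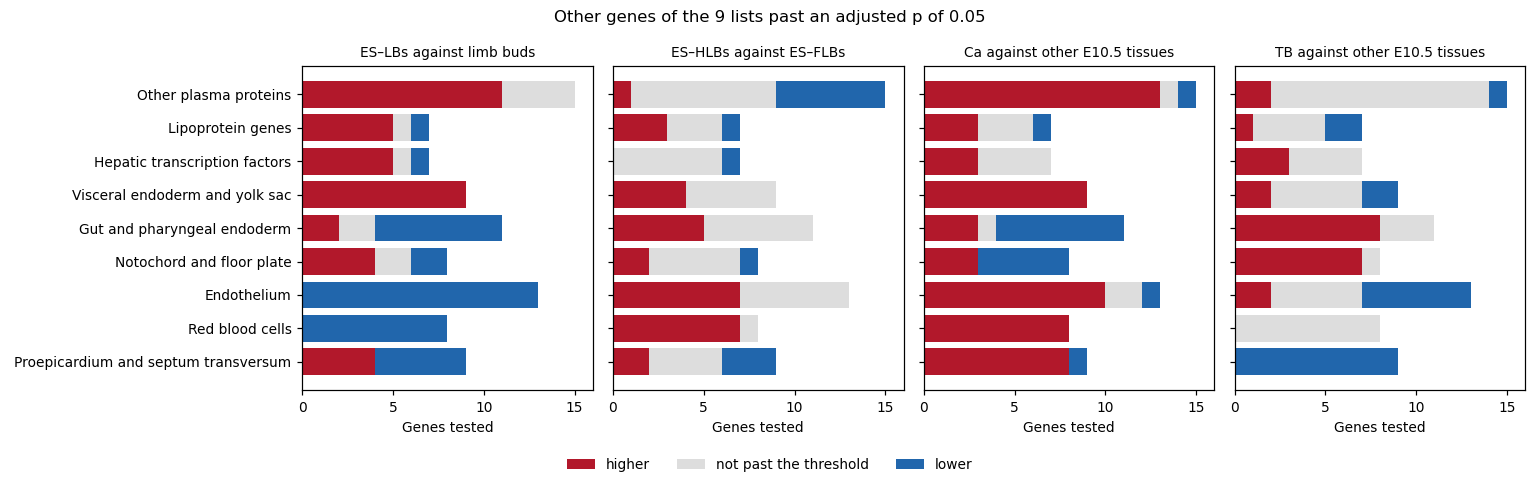
Number of tested genes of each of the 9 lists that were higher (red), lower (blue) or not past the threshold (grey) in 4 comparisons, by limma at an adjusted p of 0.05. Plasma protein genes were higher for 11 of 15 in the ES–LBs and 13 of 15 in Ca, but lower for 6 of 15 in ES–HLB against ES–FLB.

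TB and BA had FoxA factors with almost no secreted members. In TB 25.1% of all genes were called higher and 26.2% lower against the other E10.5 tissues, or 60.5% of the calls higher without scaling against 49.0% with it. Beside Foxa2, which had its highest level there, 7 of 8 notochord and floor plate genes were higher and 0 lower by limma, also at an unadjusted p of 0.05, led by T (7.06 ± 0.232, adjusted p = 4.8e-22), Nkx6-1 (4.21 ± 0.333, adjusted p = 8.51e-11) and Noto, a notochord homeobox gene (3.02 ± 0.169, adjusted p = 4.39e-16). Noto reached 1 CPM only in the 3 TB libraries and was tested only because it is high there, and T was used above as a defining gene of TB. The 9 listed genes summed to 395 to 402 CPM in TB and to 414 to 478 CPM in Ca. Spon1 of this list was at 34.0 to 41.1 CPM in TB, against 276 to 315 CPM in Ca. This list therefore does not stand for notochord and floor plate alone. Gut and pharyngeal endoderm genes were higher for 8 of 11, led by the hindgut factor Cdx2 (5.54 ± 0.224, adjusted p = 8.82e-20 by limma) and Pax9 (3.87 ± 0.226, adjusted p = 1.32e-15 by limma). The hepatic factor Onecut2 was higher as well (2.19 ± 0.282, adjusted p = 3.92e-07 by limma), at 7.70 against 1.63 CPM. Albumin was at 0 in all 3 TB libraries, and 2 of 15 plasma protein genes were higher and 1 lower (Cp and Itih3 among them passed the filter only through their high side), with 1 to 3 higher and 1 to 6 lower when 1 library was left out.

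In BA 24.9% of all genes were called higher and 26.6% lower, or 59.8% of the calls higher without scaling against 48.3% with it. Beside Foxa1, the pharyngeal pouch gene Pax9 was higher (2.11 ± 0.226, adjusted p = 3.25e-09 by limma), with the epithelial genes Cldn6 (1.14 ± 0.156, adjusted p = 5.53e-06 by limma) and Cdh1 (1.06 ± 0.199, adjusted p = 0.000229 by limma), among 5 of 11 gut and pharyngeal genes higher and 3 lower. Nr5a2, a nuclear receptor of endoderm, was higher (2.68 ± 0.308, adjusted p = 1.1e-07 by limma), 1 of 7 hepatic factors against 2 lower, or 1 to 3 higher and 1 to 3 lower when 1 library was left out. T (-2.05 ± 0.232, adjusted p = 9.54e-09 by limma) and Cdx2 (-1.82 ± 0.224, adjusted p = 4.97e-08 by limma) were lower, and both were by far highest in TB. T was at 0.116 to 0.588 CPM in BA and 119 to 135 CPM in TB. It was at 1.31 to 3.62 CPM in the E10.5 FLBs but at most 0.134 CPM in Ca. Cdx2 was at 0 in BA and Ca, at most 0.657 CPM in the E10.5 limb buds used and at 24.4 to 32.3 CPM in TB.

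Between the stages of the limb buds, Sox17 was at 4.06 to 6.24 CPM in the early libraries and 3.29 to 5.31 CPM at E10.5. Apob rested on 4 to 37 reads in the 6 early libraries, all above their limit, and Afp, at up to 100 reads, was above it in 3 of them. Of the 10 genes only Sox17, and Apoa1 in 1 library, passed the limit in the E10.5 limb buds used, which are shallower. Over all genes 23.4% were called higher and 36.8% lower at E10.5, and without scaling 63.8% of the calls were higher against 38.9% with it. Of 87 tested list genes 11 were higher and 31 lower, or 15 and 25 without scaling. Of 15 plasma protein genes, 0 were higher and 1, Cp, was lower by limma (-0.58 ± 0.187, adjusted p = 0.00803), against 0 higher and 2 lower at an unadjusted p of 0.05. Visceral endoderm genes were lower for 5 of 9 and higher for 1, or lower for 3 to 5 when 1 library was left out, among them the endocytic receptor Lrp2 (-3.42 ± 0.191, adjusted p = 5.9e-15) and Cubn (-0.91 ± 0.227, adjusted p = 0.000917), and gut and pharyngeal genes for 7 of 11, led by Cdx1 (-3.57 ± 0.234, adjusted p = 5.33e-14 by limma). Cdx1 stood at 46.1 to 51.4 CPM in the early FLBs and 7.66 to 9.66 CPM in the early HLBs, against 2.73 to 4.06 CPM in TB. Its fall is thus not read as one of gut cells. The early limb buds were sequenced to 19642197 to 22142168 reads and the E10.5 limb buds used to 5543752 to 5908846, so low values were read more finely in the former.

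For each of the 9 genes that passed the filter, the genes whose levels over the 26 libraries were most like it are given with Pearson's r as a description, since libraries of 1 group share their tissue. Apob lay closest to Spink3, a secreted trypsin inhibitor (r = 0.953), Lgals2 (0.946) and Mrgprf (0.942). Spink3 was at 24.1, 22.3 and 17.5 CPM in ES–HLB, at 3.57 to 5.02 CPM in ES–FLB and at 0.699 CPM at most elsewhere. Apoa1 lay closest to Hnf4a (0.941), the transporter Abcc2 (0.931) and Gas6 (0.920), and Apom to Mmp19 (0.880), Spp2 (0.878) and Fgb (0.875).

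Afp lay closest to Fgb (0.948), Prkca (0.946) and Serpinf2 (0.944), and Alb to Serpina6 (0.980), Ambp (0.977) and Serpinf2 (0.966). Serpina6, like Alb, was at 1.43, 1.92 and 2.03 CPM in ES–FLB, at 0 to 0.279 CPM in ES–HLB, at 1.92, 90.5 and 14.9 CPM in Ca and at 0 in the other 17 libraries. Ttr lay closest to Ccng1 (0.950), Gas6 (0.948) and Zfp112 (0.945), none of them a plasma carrier, and Ccng1 was at 143 to 251 CPM in the ES–LBs and Ca and at most 45.2 CPM elsewhere.

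Foxa1 lay closest to the neural and foregut factor Sox2 (0.890), the forkhead gene Foxl1 (0.871) and Fabp7 (0.870), and Foxa2 to Irx1 (0.935), Tubb2b (0.929) and Sox2 (0.928). Sox17 had the weakest neighbours, Cabp1 (0.775), Zbtb16 (0.760) and Tpst1 (0.751), none of them on the endothelial or endodermal lists.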

How the data were processed

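Single-end libraries were prepared from poly(A) RNA with a stranded kit. The submitters' processing notes name FastQC 0.11.5, HISAT2 2.0.4, Cuffdiff, Cufflinks 2.1.1, edgeR 3.16.2 and mm10. The strand setting of the counting is not given in the sources used here. The values that the authors deposited are CPM, and they sum to 1000000 in every library. Among values of up to 20 reads, 95.3% to 99.3% were within 0.1 of a whole read, which gave the reads and the limit of 3 reads per library (above it means over 3 reads by more than 0.1), and the rest were fractional, so the values were not read as counts. Limits cover counting error only, since PCR reads without molecular identifiers are not independent molecules.

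Of 27 libraries, 26 were scaled with a trimmed mean of the log ratios to 1 reference library, without weights (trimming 30% of ratios, and 5% by intensity, on either side). The filter kept the 14438 of 23279 genes with at least 1 CPM in 3 or more libraries. These were fitted together on log2(scaled CPM + 0.5) with limma 3.58.1 in R 4.3.3, with a variance trend and robust estimation, and the Benjamini-Hochberg adjustment covered every gene tested. A comparison of several groups weighs groups equally on the log scale, and fold changes on this scale understate those of low genes. The fit was also run on simulated data. These gave every gene the same dispersion, without the wide spread of the Ca libraries, so they do not cover genes such as the plasma proteins. Tables and figures used Python 3.11.15, numpy 2.4.6, pandas 2.3.3 and matplotlib 3.10.9.

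The members and the 9 lists (119 genes, 118 of them with values and 87 tested) were chosen with earlier results of these data known. Beside the members, the text names up to 3 genes per list and direction with the largest differences among those called, the 3 genes most like each member, and defining genes of a tissue. Positions and promoters are from RefSeq (GRCm38.p6), and exon lengths and overlaps from GENCODE on the same assembly. Serpina1a, Serpina1b and Hba-a1 have near-identical copies and are uncertain. Alternatives were another scaling, pseudocounts, filters, variance model and set of libraries, a replicate block, and each library left out. A gene of the fixed lists is counted in the list totals but not reported here by name.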

Additional observations from a re-analysis of the deposited data

Results flagged for a closer look

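The library left out of the comparisons, replicate 2 of the E10.5 HLBs, holds values for members outside its lost chromosomes. There Apob was at 1.09 CPM and Sox17 at 7.10 CPM as deposited, above its limit of 3 reads, 0.819 CPM. Both stand out only as signal in data that no comparison used, and because the CPM of that library are shares of a smaller set of genes, its values are raised relative to the others.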

How the results depend on the processing

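The count of list genes past the threshold stayed within 1.5 times its reported value under every alternative run. With 1 library left out it ran from 75 to 77 for ES–LBs against limb buds (77), 31 to 37 for ES–HLB against ES–FLB (43), 71 to 77 for Ca (76), 46 to 58 for BA (51), 38 to 54 for TB (45) and 31 to 43 between the limb bud stages (42). Under the other alternatives it ran from 63 to 86, 31 to 46, 60 to 97, 38 to 52, 39 to 47 and 36 to 43 in the same order. The labels link libraries of different groups only by a replicate number. Deviations of same-numbered pairs had r from -0.0869 to 0.126, and most libraries, 19 of 26, were closest to their own number. What same-numbered libraries share was not tested. With the replicate block the counts were 77, 44, 76, 51, 47 and 43. Over the list genes named by the rule, 3963 values kept their direction and side of the threshold, 142 fell short of it and 0 reversed. The libraries of the compared groups alone were an alternative added after seeing the data. A count test on reads was not run, as not all values were whole reads. Of the members' group levels, 4 moved by more than 1 SD without scaling and 2 with the truncated library added. Depth limits Alb in ES–HLB, Apoa2 outside Ca and, in the E10.5 limb buds, all members but Sox17.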
